A study of Mus musculus with 4 samples.

Results

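The genes described here are 5 regulators of alternative splicing: Ptbp1, Ptbp2 and Rod1, which encode polypyrimidine tract-binding (PTB) proteins, and Mbnl1 and Mbnl2, which encode muscleblind proteins. They were chosen by symbol, as 5 of the 22730 gene symbols, 8 of the 28283 transcripts and 380 of the 1921627 exon-exon junctions in the deposited tables. Rod1 is the older symbol of Ptbp3, as its 2 RefSeq transcripts show. Total thymocyte RNA was depleted of ribosomal RNA and sequenced, with 1 library from each of 2 wild-type (WT) mice and of 2 mice labelled hnRNP L KO (knockout). The labels give WT and KO mice the same mixed background, namely C57BL/6, an LckCre transgene, which expresses Cre recombinase from a promoter active in T lineage cells, the tdTomato and EGFP reporter at the ROSA26 locus, and CD45.1. The sources used here do not say which of the mice carried Cre or the reporter, which part of Hnrnpl was deleted, or how old the mice were. Values in 4 libraries are given throughout in the order WT 1, WT 2, KO 1 and KO 2.

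PTB proteins bind pyrimidine-rich RNA, mostly in introns, and usually repress the exons nearby. Ptbp1 is the form of most tissues, Ptbp2 is best known from developing neurons, and Rod1 is prominent in haematopoietic cells. PTB proteins repress an exon in their own and each other's transcripts, and loss of that exon shifts the reading frame so that the RNA is open to nonsense-mediated decay. Muscleblind proteins are zinc finger proteins that bind RNA with GC steps flanked by pyrimidines, promote the mature pattern of many exons in muscle, heart and brain, and also act on exons of their own transcripts. hnRNP L, the protein deleted in the KO mice, binds CA-rich RNA and is a relative of the PTB proteins.

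The exon on which this control turns is 34 nt long in all 3 PTB genes. Its sequence is shown because its inclusion differed most between the 3 genes, and capitals mark the positions at which the 3 sequences are not all the same. It was taken from GENCODE M21 transcripts on mm10, at chr10:79862014-79862047 on the plus strand for Ptbp1, chr3:119724612-119724645 on the minus strand for Ptbp2 and chr4:59485339-59485372 on the minus strand for Rod1.
Ptbp1: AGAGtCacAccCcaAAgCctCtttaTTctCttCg
Ptbp2: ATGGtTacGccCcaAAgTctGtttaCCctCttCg
Rod1: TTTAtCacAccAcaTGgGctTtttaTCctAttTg

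Of the 34 positions, 26 were the same in Ptbp1 and Ptbp2, 22 in Ptbp1 and Rod1, and 19 in all 3 genes. It is coding exon 10 of 14 in Ptbp1 and in Ptbp2, and exon 11 of 15 in Rod1. Without it, the annotated reading frame of each gene would end in the next exon, 361 nt before the last exon-exon junction, after 379 codons in place of 555 in Ptbp1, 356 in place of 532 in Ptbp2 and 375 in place of 551 in Rod1. The PTB motifs TCTT and CTCT had 4 matches in the Ptbp1 exon, 2 in the Ptbp2 exon and 0 in the Rod1 exon, counted on the transcript strand with overlapping matches included. Of 167 internal exons of this length in GENCODE, 22.2% held such a match. The CA-rich motifs CACA and ACAC, counted in the same way, had 2 matches in Ptbp1, 0 in Ptbp2 and 3 in Rod1, beside 24.0% of those exons with a match. A match describes the letters only.

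A further coding exon, of 78 nt, lies between RNA-binding domains of Ptbp1 and Rod1 and keeps the reading frame. It is shown because Ptbp1 used it in part of its transcripts while Rod1 had no read that skipped it. The exons are at chr10:79860117-79860194 and chr4:59488111-59488188 on mm10, capitals mark the positions that differ, and 46 of the 78 positions were the same.
Ptbp1: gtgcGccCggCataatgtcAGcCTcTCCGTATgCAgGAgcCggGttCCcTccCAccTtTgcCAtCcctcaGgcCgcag
Rod1: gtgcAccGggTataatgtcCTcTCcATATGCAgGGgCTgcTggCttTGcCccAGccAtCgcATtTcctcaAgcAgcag

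Among the alternative exons of the muscleblind genes are paralogous exons of 36, 54 and 95 nt. The 54-nt exon is the one that muscleblind proteins are known to act on in their own transcripts, and it carries part of a nuclear localisation signal. It is shown for Mbnl2, at chr14:120395712-120395765 on mm10, with the 36-nt exon of Mbnl1 at chr3:60621423-60621458. Capitals mark positions at which the other muscleblind gene has another base. The 36-nt and 54-nt exons keep the reading frame and the 95-nt exon does not, and the paralogous exons were the same at 86.1% (36 nt), 85.2% (54 nt) and 85.3% (95 nt) of positions. The 54-nt exon of Mbnl1 and the 36-nt exon of Mbnl2 are not analysed here.
Mbnl2 54-nt exon: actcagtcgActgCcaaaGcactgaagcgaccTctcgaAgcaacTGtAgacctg
Mbnl1 36-nt exon: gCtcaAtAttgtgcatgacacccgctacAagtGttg

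Mapped reads numbered 99782558, 122619310, 69061265 and 75485061, and reads on junctions 4759678, 6146421, 3302915 and 3515308, so that the KO libraries were the shallower ones. Hnrnpl itself was at 854 and 813 CPM (read counts scaled to library size, with TMM factors) in WT and at 467 and 208 in KO, lower in both KO libraries without overlap (log2 fold change -1.30, SE 0.42, adjusted p = 0.486, edgeR). All 8 thymocyte markers checked were read in every library, and their summed level was 15080, 14910, 15400 and 11660 CPM, lowest in KO 2. Erythroid markers (4 of 5 found) summed to 86.7, 77.8, 287 and 59.6 CPM, highest in KO 1, and the 8 markers of stroma and epithelium to 204, 207, 215 and 231 CPM. Most of the stromal sum was Pecam1, and the other 7 summed to 32.7, 29.8, 26.2 and 58.9 CPM, highest in KO 2. The 5 myeloid markers summed to 131, 128, 146 and 146 CPM and the 4 B cell markers to 35.4, 35.6, 38.4 and 31.2 CPM. In such bulk samples, fewer cells of a type and less RNA per cell cannot be told apart. The replicates are separate mice.

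Levels per length followed the same order in 3 of the 4 libraries. In the RPKM values the authors deposited (read counts divided by transcript length and sequencing depth, here for the transcript of each gene with the most reads), Mbnl1 was highest at 53.8, 68.7, 70.5 and 64.2. Rod1 was at 43.5, 48.6, 45.8 and 39.1 RPKM, and Ptbp1 at 33.8, 45.0, 39.8 and 45.9. These ranges of Rod1 and Ptbp1 overlapped, and in KO 2 Ptbp1 was above Rod1. Mbnl2 followed at 13.6, 15.4, 14.0 and 11.5 RPKM, and Ptbp2 was lowest at 7.58, 8.62, 8.36 and 9.05. Apart from Rod1 and Ptbp1, no 2 neighbours in this order overlapped over the 4 libraries, as the plot of RPKM by gene and library shows. Of the neuronal markers (4 of 5 found), Snap25 had 0, 2, 0 and 2 reads, Rbfox3 3, 12, 2 and 3, Syt1 25, 46, 16 and 29 and Tubb3 636, 736, 409 and 718, beside 2543, 3556, 1942 and 2298 reads of Ptbp2. Their summed level, nearly all of it Tubb3, was 17.1, 15.6, 15.5 and 24.3 CPM, highest in KO 2, as was the level of Ptbp2, and its part in that level was not tested.

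**Figure D1:**
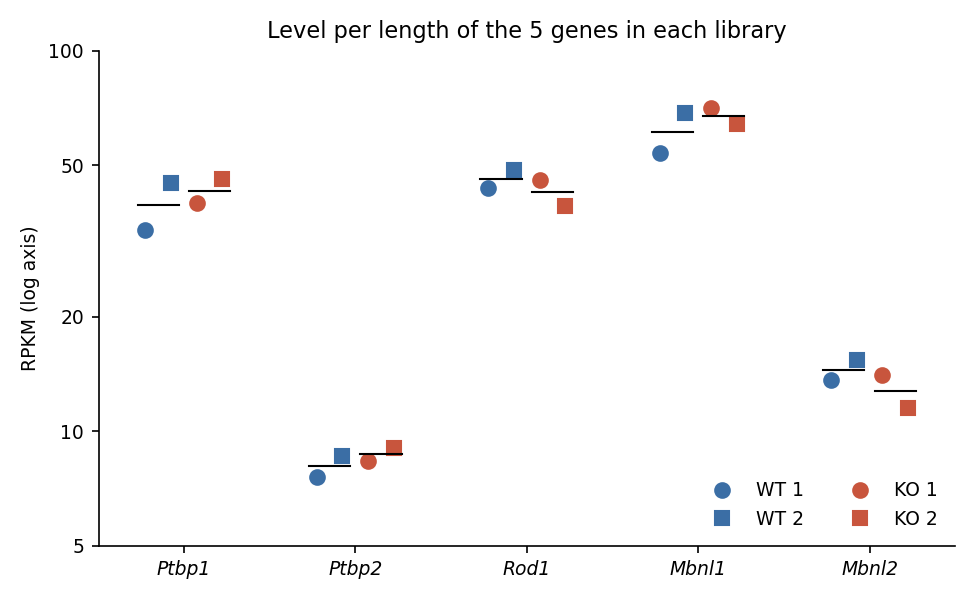
Level per length (RPKM, log axis) of the 5 genes in each of the 4 libraries (circles, replicate 1, squares, replicate 2, blue WT, red KO, black lines the mean of each group). Mbnl1 was highest in every library (53.8 to 70.5 RPKM) and Ptbp2 lowest (7.58 to 9.05 RPKM), and the WT and KO points of a gene lie close together.

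None of the 5 genes was called changed in KO thymocytes. The edgeR quasi-likelihood test with Benjamini-Hochberg adjustment called 0 of the 5 at an adjusted p under 0.05, beside 0.00728% of the 13733 genes tested (1 gene). At an unadjusted p under 0.05 it also found 0 of the 5, beside 9.9% of all genes tested.

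Ptbp1, the general repressor, was at 254, 317, 292 and 328 CPM. WT 1 was the low library and the groups overlapped. The mean was 285 ± 44.8 CPM in WT and 310 ± 25.9 in KO (SD, n = 2), a log2 fold change of 0.12 (SE 0.15, 95% interval -0.23 to 0.47, adjusted p = 0.774, edgeR). Its other transcript, which lacks the 78-nt exon, shares nearly all of its reads and gave a log2 fold change of 0.12.

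Ptbp2, the neuronal form, was at 65.3, 69.7, 70.3 and 74.2 CPM. Both KO values were above both WT values, by a small margin. This was also so, in either direction, for 44.7% of all genes tested. The log2 fold change was 0.10 (SE 0.11, 95% interval -0.15 to 0.35, adjusted p = 0.744, edgeR), so that the change was not called.

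Rod1 was at 764, 801, 784 and 654 CPM, with KO 2 alone below the others. KO 1 lay between the WT libraries. The log2 fold change was -0.12 (SE 0.15, 95% interval -0.47 to 0.23, adjusted p = 0.772, edgeR), and without KO 2 it was 0.004.

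Mbnl1, the muscleblind gene with the highest level, was at 769, 922, 984 and 873 CPM. WT 1 was the low library, as for Ptbp1, and WT 2 lay between the KO libraries. The log2 fold change was 0.14 (SE 0.16, 95% interval -0.23 to 0.50, adjusted p = 0.758, edgeR), and it was 0.01 without WT 1 and 0.28 without WT 2.

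Mbnl2 was at 159, 168, 160 and 128 CPM. KO 2 was low and KO 1 lay between the WT libraries, as for Rod1. The log2 fold change was -0.19 (SE 0.14, 95% interval -0.51 to 0.14, adjusted p = 0.633, edgeR). Without KO 1 it was -0.36 (adjusted p = 0.139) and without KO 2 it was -0.03 (adjusted p = 0.957), so that the size of the change rests on KO 2. KO 2, in which Rod1 and Mbnl2 were low, was also the library with the lowest sum of thymocyte markers and the highest sum of stromal markers without Pecam1. Much of the thymocyte sum is Rag1, at 7811, 7402, 7685 and 5529 CPM, while Cd3e, at 120, 178, 226 and 357 CPM, and Ptcra were highest in KO 2. The part of these differences in the values of Rod1 and Mbnl2 was not tested.

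The 5 changes were not large beside those of other genes. The share of tested genes with a smaller absolute log2 fold change was 34.8% for Ptbp1, 29.0% for Ptbp2, 35.4% for Rod1, 38.8% for Mbnl1 and 50.5% for Mbnl2. Of all genes tested, 53.5% had an absolute log2 fold change below 0.2.

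Exon use was measured from junction reads. The inclusion level of an exon is the mean of the reads on its 2 inclusion junctions, into and out of the exon, over that mean plus the reads on the junction that skips it. Of the members, 15 exons were described, in 17 comparisons of an exon with a skipping junction. These were the exons annotated as alternative or with at least 5 skipping reads in all that made up 2% or more of the reads in some library. The 34-nt and 78-nt exons of Rod1 were added, after their values were seen, as counterparts of the Ptbp1 exons. Of the 17 comparisons, 13 had enough reads for the test, and edgeR called 0 of the 13, beside 0.0559% of the 3577 exon comparisons tested (2 comparisons). The smallest unadjusted p among the members was 0.236, while 6.04% of all exon comparisons tested had one under 0.05. The inclusion levels of the groups did not overlap in 3 of the 13, beside 36.5% of all exon comparisons tested. Junction positions are on mm9, the build in the submitters' processing notes.

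The 34-nt exon of Ptbp1 (chr10:79324759-79324792, mm9) was mostly included. The junction into it held 322, 672, 287 and 358 reads and the junction out of it 48, 108, 56 and 54 reads, while 14, 13, 17 and 6 reads skipped it, on a junction marked putative by the authors. Inclusion was 93.0%, 96.8%, 91.0% and 97.2%. The groups overlapped, with means of 94.9% ± 2.69 in WT and 94.1% ± 4.38 in KO (SD, n = 2), and the change in the odds of inclusion was -0.24 on the log2 scale (SE 0.89, adjusted p = 0.991, edgeR). The junctions on either side of this exon gave different levels, since by the outgoing junction alone inclusion was 77.4%, 89.3%, 76.7% and 90.0%.

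In Ptbp2 the corresponding exon (chr3:119427530-119427563, mm9) was mostly skipped. The skipping junction held 11, 13, 8 and 6 reads, the junction into the exon 1, 8, 0 and 0, and the junction out of it 5, 0, 1 and 1. Inclusion was 21.4%, 23.5%, 5.88% and 7.69%, lower in both KO libraries, at read numbers under the minimum for the test. The junctions on its sides differed. On the outgoing junction alone inclusion was 31.25%, 0%, 11.1% and 14.3%, so that both KO libraries lay between the WT libraries. By the incoming junction alone, the exact 95% intervals of inclusion were 0.211% to 38.5% in WT 1, 18.1% to 61.6% in WT 2, 0% to 36.9% in KO 1 and 0% to 45.9% in KO 2. They all overlap, and a difference between WT and KO was not tested.

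In Rod1 the corresponding exon (chr4:59498211-59498244, mm9) had no skipping read. The junction into it held 64, 53, 38 and 54 reads and the junction out of it 203, 209, 127 and 105. Against the reads on the incoming junction, a count of 0 allows skipping of up to 4.69%, 5.66%, 7.89% and 5.56%. Over the 3 PTB genes, skipping of the 34-nt exon, as 100% less the inclusion level, ranged from 76.5% to 94.1% in Ptbp2 and from 2.83% to 9.02% in Ptbp1, and was not detected in Rod1. Skipping was higher in Ptbp2 than in Ptbp1 in each of the 4 libraries, as the plot of inclusion by exon and junction shows. By the incoming junction alone, inclusion of the Ptbp1 exon was 95.8%, 98.1%, 94.4% and 98.35%. Those levels lay within the exact 95% intervals of Rod1, with lower ends of 94.4%, 93.3%, 90.7% and 93.4%. On that side Ptbp1 and Rod1 could not be told apart in any library. By the outgoing junction alone the intervals did not overlap, with upper ends of 87.1%, 94.2%, 85.8% and 96.2% in Ptbp1. The lower ends in Rod1 were 98.2%, 98.3%, 97.1% and 96.5%.

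**Figure D2:**
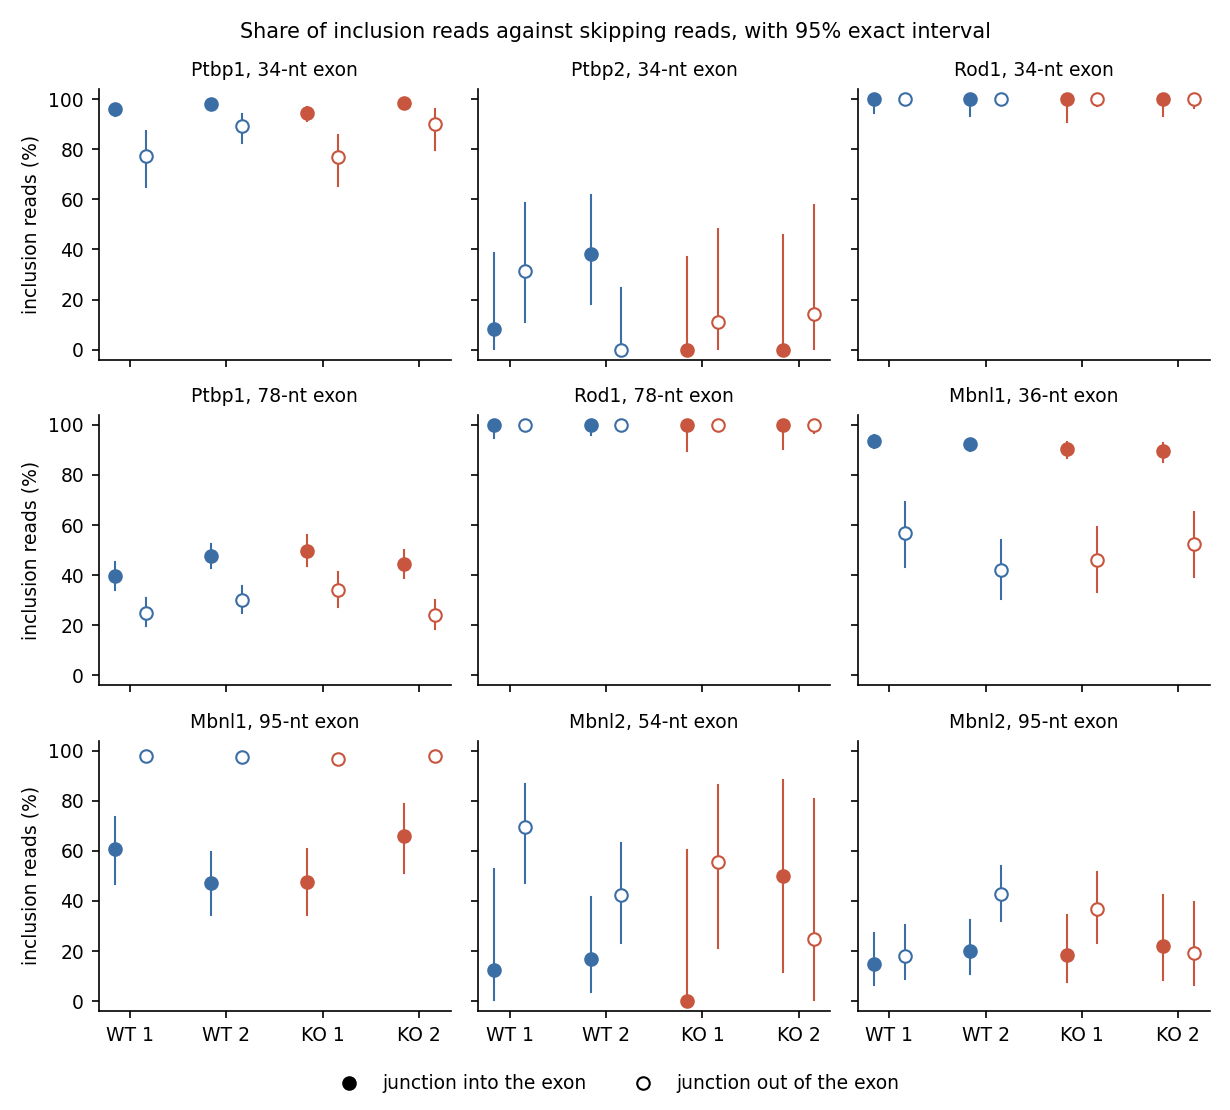
Share of inclusion reads among inclusion and skipping reads (%) for 9 exons in each library, by the junction into the exon (filled) and out of it (open), with exact 95% intervals (blue WT, red KO), against the skipping junction with the most reads. The 34-nt exon was mostly included in Ptbp1 (76.7% to 90.0% by the outgoing junction), mostly skipped in Ptbp2 and without a skipping read in Rod1, and in every library the 2 junctions gave different levels for the 36-nt and 95-nt exons of Mbnl1.

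The 78-nt exon of Ptbp1 (chr10:79322862-79322939, mm9), on known junctions throughout, was included in part of the transcripts. It was covered on 123, 194, 125 and 139 reads going in and 62, 92, 65 and 55 going out, and it was skipped on 187, 213, 126 and 174 reads. Inclusion was 33.1%, 40.2%, 43.0% and 35.8%. WT 1 was the lowest and KO 1 the highest, and the means of 36.6% ± 5.01 in WT and 39.4% ± 5.09 in KO (SD, n = 2) differed by less than the spread between mice (log2 change in odds 0.17, SE 0.71, adjusted p = 0.991, edgeR). The read counts of the transcript with this exon exceeded those of the transcript without it by 44, 47, 42 and 49 reads, which is 0.445%, 0.291%, 0.521% and 0.482% of its reads. Those excess reads gave a log2 change of 0.49 (SE 0.28, adjusted p = 0.872, edgeR), which ran from 0.17 without WT 2 to 0.79 without WT 1. The corresponding 78-nt exon of Rod1 (chr4:59500983-59501060, mm9) had 70, 86, 33 and 37 reads going in, 193, 212, 139 and 111 going out, and no skipping read.

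Rod1 had other alternative exons. A known 34-nt exon near its start, at another place than the one above (chr4:59559021-59559054, mm9), was mostly skipped, with inclusion of 13.6%, 8.09%, 9.25% and 12.0%. The groups overlapped (log2 change in odds 0.04, SE 0.78, adjusted p = 0.999, edgeR). It is coding exon 2 of 15 in the GENCODE transcript that holds it. Without it that reading frame would end in exon 3, after 20 codons in place of 551 and 1426 nt before the last exon-exon junction. The junction that skips it is marked known, and the start codon of transcripts without it was not checked. The exon after this 34-nt exon has a pair of alternative 5′ splice sites. Of the junction reads into the following exon, 87.2%, 90.2%, 85.8% and 90.3% came from the site that makes it 82 nt long, and 12.1%, 9.77%, 13.7% and 7.46% from the site that makes it 73 nt long. The longer form was the main one in all 4 libraries, and WT and KO overlapped. Both forms were skipped by the same 2, 0, 1 and 3 reads. Inclusion of the 82-nt form was 98.7%, 100%, 99.3% and 97.2% (log2 change in odds -1.56, SE 1.60, adjusted p = 0.948, edgeR). For the 73-nt form it was 96.2%, 100%, 98.5% and 94.2% (-1.29, SE 1.53, adjusted p = 0.972, edgeR). The groups overlapped in both. A 165-nt exon was skipped by 3, 7, 0 and 2 reads, and its inclusion was 97.9% or more in every library (log2 change in odds 1.46, SE 1.34, adjusted p = 0.922, edgeR). With each library left out that change ran from 0.56 (without KO 1) to 4.58 (without KO 2).

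Mbnl1 had the most reads on putative junctions among the genes of higher level, at 3.75%, 3.89%, 3.71% and 3.51% of its junction reads, beside 0.567%, 0.383%, 0.975% and 0.382% for Ptbp1 and 1.15% to 1.18% for all genes. The share was much the same in Ptbp2, at 3.54%, 3.07%, 3.09% and 3.96%, and higher in Mbnl2. Most of the reads on putative junctions of Mbnl1 skipped its 36-nt exon (chr3:60425345-60425380, mm9), its 95-nt exon (chr3:60426068-60426162, mm9) or a longer exon near its start. Of the reads leaving the exon before the 36-nt exon, 91.3%, 86.8%, 88.2% and 83.6% went to the 36-nt exon, 6.27%, 7.26%, 9.30% and 9.84% went to the 95-nt exon, and 2.41%, 5.91%, 2.54% and 6.56% went past both. The share that went straight to the 95-nt exon was above both WT values in both KO libraries. Its exact 95% intervals were 4.13% to 9.05% and 5.31% to 9.66% in WT. In KO they were 6.49% to 12.8% and 6.74% to 13.7%, and they all overlap. The log2 change in the odds of 36-nt inclusion against that junction was -0.50 (SE 0.76, adjusted p = 0.974, edgeR). The change was -0.55 (SE 0.75) by the junction into the 36-nt exon alone and 0.01 (SE 0.79) by the junction out of it alone. Whether the 2 sides changed differently was not tested.

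Of the reads leaving the 36-nt exon itself, 60.7%, 47.0%, 47.5% and 66.0% went to the 95-nt exon and the others went past it. WT and KO overlapped. On the far side, 96.7%, 95.1%, 95.2% and 95.8% of the reads that reached the next exon came from the 95-nt exon. Against the same skipping junction, inclusion of the 36-nt exon was 93.6%, 92.3%, 90.5% and 89.5% by the incoming junction. By the outgoing junction it was 56.7%, 41.9%, 45.9% and 52.4%. For the 95-nt exon spliced from the 36-nt exon, outgoing inclusion was 97.9%, 97.6%, 96.6% and 98.0%. The 2 sides of these exons thus differed by more than WT and KO did, as the plot of inclusion by exon and junction shows. The stacked plot of Mbnl1 junction reads shows the donor side only. Reads into the 36-nt exon (379, 514, 313 and 255) outnumbered reads out of it to the 95-nt exon (34, 31, 28 and 33) and past it (22, 35, 31 and 17) in every library, and what makes the sides differ was not tested.

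**Figure D3:**
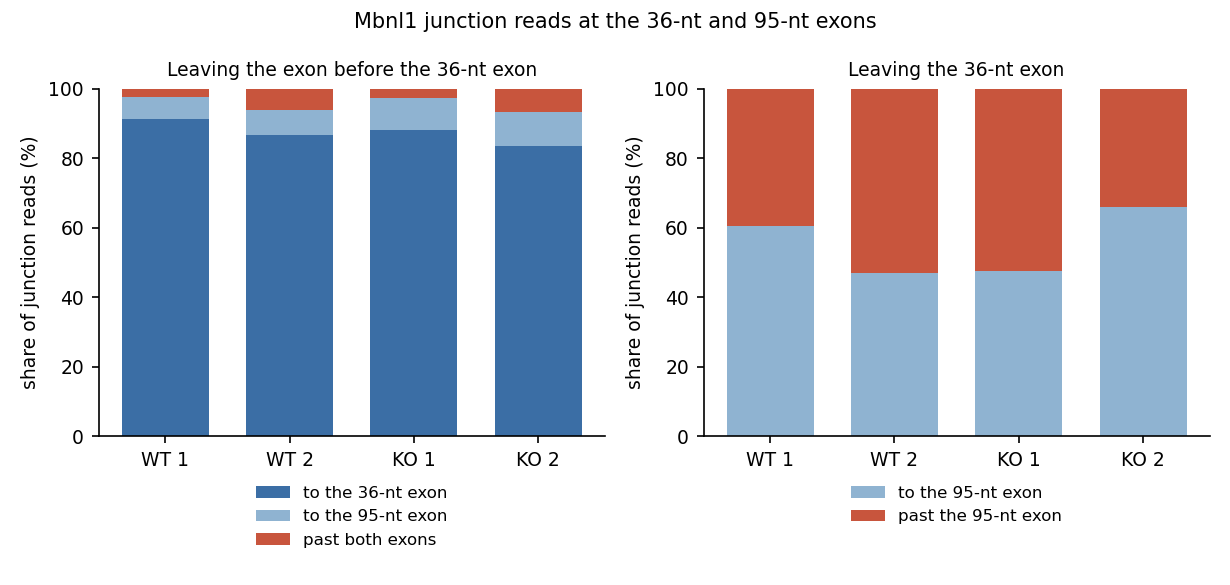
Stacked shares (%) of Mbnl1 junction reads in each library that leave the exon before the 36-nt exon (left) and that leave the 36-nt exon (right), by where they go. On the left 83.6% to 91.3% went to the 36-nt exon, and on the right the WT and KO shares overlap.

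A long Mbnl1 exon of 1049 nt near the start of the gene (chr3:60332678-60333726, mm9) showed the smallest p of any member exon. Inclusion was 36.3%, 47.4%, 54.5% and 62.8%, so that both KO libraries were above both WT libraries, with means of 41.8% ± 7.84 in WT and 58.7% ± 5.83 in KO (SD, n = 2). The change was not called (log2 change in odds 0.99, SE 0.83, adjusted p = 0.886, edgeR). The junctions on its sides did not move alike. Reads into the exon were 30.8%, 20.5%, 50.0% and 15.8% of those leaving the first exon, with overlap, while reads out of it were 41.0%, 60.7%, 58.3% and 76.1% of those reaching the next exon, also with overlap. A 154-nt Mbnl1 exon (chr3:60419542-60419695, mm9) was skipped by 2, 3, 5 and 0 reads, on a putative junction that also passes over the 36-nt and 95-nt exons. The outgoing junction set against it was the putative one past both exons (10, 35, 9 and 20 reads). The known junction to the 36-nt exon (379, 514, 313 and 255 reads) was left out. On this measure inclusion of the 154-nt exon was 97.6%, 97.6%, 94.35% and 100%, with overlap (log2 change in odds -0.19, SE 1.32, adjusted p = 0.992, edgeR).

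In Mbnl2 the 95-nt exon (chr14:120803860-120803954, mm9) was mostly skipped, unlike its Mbnl1 counterpart. It was skipped on 46, 48, 31 and 21 reads of a putative junction and included on 8, 12, 7 and 6 reads going in and 10, 36, 18 and 5 going out. Inclusion was 16.4%, 33.3%, 28.7% and 20.8%. The means of 24.8% ± 12.0 in WT and 24.7% ± 5.65 in KO (SD, n = 2) did not differ beyond the spread (log2 change in odds 0.04, SE 0.88, adjusted p = 0.999, edgeR). These skipping reads were most of the reads on putative junctions, which held 19.6%, 13.6%, 16.8% and 13.7% of the junction reads of Mbnl2, the highest share of the 5 genes in every library.

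The 54-nt exon of Mbnl2 (chr14:120794934-120794987, mm9), the one shown above, was read by few junction reads. Going in it had 1, 3, 0 and 3 reads, going out 16, 11, 5 and 1, and 7, 15, 4 and 3 reads skipped it, so that it fell under the minimum for the exon test. Inclusion was 54.8%, 31.8%, 38.5% and 40.0%, with overlap. The read counts of the 2 Mbnl2 transcripts, which differ in length by these 54 nt, allowed a further look that was chosen after the data were seen. The transcript with the exon had 16, 23, 4 and 3 reads more than the one without it, of 6180, 8580, 4412 and 3950 reads, or 0.259%, 0.268%, 0.0907% and 0.0759%.

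Both KO libraries were thus below both WT libraries in the share of excess reads of the transcript with the 54-nt exon. The exact 95% intervals were 0.148% to 0.420% and 0.170% to 0.402% in WT, and 0.0247% to 0.232% and 0.0157% to 0.222% in KO, and they overlap between groups. The log2 change was -1.62 (SE 0.45, unadjusted p = 0.00739), and it did not pass the adjustment (adjusted p = 0.715, edgeR). That adjustment was over 659 genes with 2 transcripts, in which the transcript with more reads can be the longer or the shorter. Of those genes 0% were called and 6.22% had an unadjusted p under 0.05, and the share in which the groups did not overlap was not counted. With each library left out in turn the change ran from -1.75 to -1.51. The junction out of the exon gave a lower use in KO as well, with a log2 change of -0.98 relative to the other Mbnl2 junctions (unadjusted p = 0.0818, adjusted p = 1, edgeR). Skipping reads were fewer in KO as well. Neither the reads into the exon (1, 3, 0 and 3) nor the inclusion level by junctions separated the groups. The 2 measures can hold the same reads and are not independent of each other.

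Over all junctions of the 5 genes, 66 had enough reads for the test of junction use relative to the rest of the gene, 14 in Ptbp1, 12 in Ptbp2, 17 in Rod1, 14 in Mbnl1 and 9 in Mbnl2. The edgeR diffSpliceDGE test called 0 of the 66, beside 0.0042% of the 95139 junctions tested (4 junctions). At an unadjusted p under 0.05 it also found 0 of the 66, beside 2.55% of all junctions tested. The Simes p per gene, unadjusted, ran from 0.736 in Mbnl2 to 0.994 in Rod1.

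Genes that work with the PTB proteins, or compete with them at pyrimidine tracts, gave 0 calls among 14 tested, with 5 positive and 9 negative log2 fold changes and a median of -0.06, beside a median of 0.01 over all genes tested. Of these, 3 had an unadjusted p under 0.05, beside 9.9% of all genes tested, and they were Hnrnpl, the targeted gene itself, with Raver2 and U2af2. Raver2, a partner of PTB, was at 12.6, 15.9, 9.85 and 5.36 CPM, lower in both KO libraries (log2 fold change -0.91, SE 0.29, adjusted p = 0.453, edgeR). U2af2, which binds the pyrimidine tract at the 3′ splice site, was at 168, 152, 126 and 122 CPM, also lower in both (log2 fold change -0.37, SE 0.12, adjusted p = 0.453, edgeR).

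Muscleblind relatives and other regulators of such exons gave 0 calls among 12 tested, 5 positive and 7 negative, with a median log2 fold change of -0.04 and none at an unadjusted p under 0.05. Of the factors of nonsense-mediated decay 12 were tested, 9 positive and 3 negative, with 0 calls and a median of 0.03. Among these, Upf2 was at 44.3, 50.2, 61.7 and 61.8 CPM (log2 fold change 0.39, SE 0.11, adjusted p = 0.431, edgeR) and Upf3b at 18.9, 23.6, 28.3 and 30.9 CPM (0.48, SE 0.16, adjusted p = 0.453, edgeR). Both code for core proteins of that pathway and were higher in both KO libraries. These 2 of the 12 had an unadjusted p under 0.05, beside 9.9% of all genes tested, and the groups did not overlap in 44.7% of all genes tested.

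Genes with exons known to be regulated by the 2 families did not stand out either. Of the PTB targets 17 were tested, 8 positive and 9 negative, with 0 calls and a median log2 fold change of -0.01, and of the muscleblind targets 18, 10 positive and 8 negative, with 0 calls and a median of 0.06. In these target genes 8 exon comparisons in 5 PTB targets and 14 in 7 muscleblind targets had enough reads for the exon test, with 0 called in each list. In the PTB list 1 of the 8 had an unadjusted p under 0.05, beside 6.04% of all exon comparisons tested. It was a 110-nt exon of Dlg4 (log2 change in odds -3.79, SE 1.37, adjusted p = 0.739, edgeR), and whether this is the exon of Dlg4 that PTB acts on was not checked. The plot of log2 fold changes sets these lists beside the members.

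**Figure D4:**
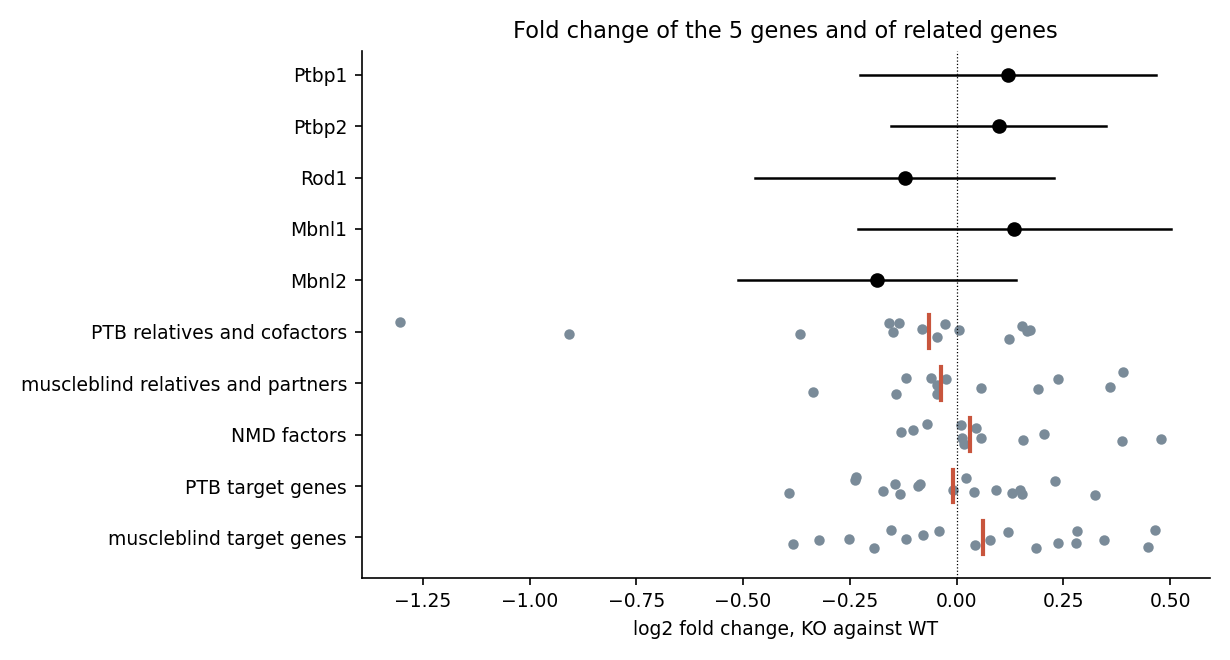
Log2 fold change (KO against WT) of the 5 genes with 95% intervals (black) and of the genes of 5 related lists (grey points, red line the median). The intervals of the 5 genes all include 0, and the grey point at -1.30 is Hnrnpl.

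The genes whose pattern over the 4 libraries lay nearest to each member were found among 8880 genes by the distance between centred log2 CPM values. They were Rbbp8 (distance 0.0192) and Htt (0.0219) for Ptbp1, Mtor (0.00885) and Depdc5 (0.0112) for Ptbp2, and Zfr (0.0191) and 1700081L11Rik (0.0194) for Rod1. For Mbnl1 they were Polr2a (0.0220) and 1110034B05Rik (0.0236), and for Mbnl2 Rab5c (0.0154) and Ly6a (0.0201). No member was among the nearest genes of another.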

How the data were processed

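For each library the authors deposited raw read counts per RefSeq transcript with RPKM values, and raw read counts per exon-exon junction, marked known or putative. Per the file headers, only primary alignments were counted, at a minimum mapping quality of 10. Per the submitters' processing notes the build is mm9, and the sources used here name no aligner and no strand setting. The ratio of reads to transcript length in the deposited tables was not used in a test.

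For each symbol the transcript with the most reads was kept. The test of genes was that of edgeR 4.0.16 on R 4.3.3 (robust quasi-likelihood, TMM, filter on low counts, Benjamini-Hochberg over all genes, threshold 0.05). Tested in addition were junctions with at least 10 reads in all with diffSpliceDGE, and exons with at least 10 reads in every library by inclusion against skipping reads. For genes with 2 transcripts at 1 location, the reads by which 1 transcript exceeded the other were tested in the same way as exons. The transcript with more reads was taken, whether longer or shorter. In Rod1 it was the shorter (length difference -25 nt), and its excess gave a log2 change of -0.28 (SE 0.19, adjusted p = 0.916, edgeR). That Rod1 change is not among the single changes counted below. Fold changes are KO over WT. Intervals of shares are exact Clopper-Pearson intervals at 95%, a count of 0 allows up to 3 reads, and both cover counting error only. The fits were tested on simulated data. Exon sequences come from GENCODE M21 on mm10 and no coordinate was converted. An mm10 exon was matched to an mm9 junction exon by its gene, its length and the lengths of the introns beside it. The members, the related gene lists and the tests were chosen with earlier results of these data known. Named were all members, their exons by the rule in the text, list genes with an unadjusted p under 0.05 and the 2 nearest genes of each member. Alternatives were other scalings (upper quartile, DESeq2 size factors), DESeq2 1.42.0, limma-voom (limma 3.58.1), no filter, no robust moderation, each transcript tested, other read minimums, known junctions only, 1 inclusion junction alone, the replicate number as a block, and each library left out.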

Additional observations from a re-analysis of the deposited data

How the results depend on the processing

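No alternative called a member: the counts of member genes, junctions and exons called were 0 under all 28 settings run with edgeR, DESeq2 or limma-voom. The 20 single changes tested kept their direction under 147 of 170 settings and changed sign under 23, 17 of them with a library left out, and no adjusted p was under 0.139. By the junction out of the exon alone, the log2 change in odds was 0.0058 for the 36-nt exon of Mbnl1 against the junction to the 95-nt exon and 0.25 against the junction past both, -0.091 for the 95-nt exon of Mbnl2 and -0.20 for the known 34-nt exon near the start of Rod1. By the junction into the exon alone it was 0.17 for the 95-nt exon of Mbnl1 spliced from the 36-nt exon.

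With each library left out, the log2 fold change ranged from -0.028 to 0.29 for Ptbp1, 0.056 to 0.15 for Ptbp2, -0.27 to 0.0038 for Rod1, 0.014 to 0.28 for Mbnl1 and -0.36 to -0.033 for Mbnl2, and the log2 change in odds from -0.052 to 0.39 for the 78-nt and from -0.99 to 0.76 for the 34-nt exon of Ptbp1, from -0.58 to 0.77 for the 95-nt exon of Mbnl2, and from -0.41 to 0.42 for the known 34-nt and from 0.56 to 4.58 for the 165-nt exon of Rod1. The 73-nt exon of Rod1 had enough reads only without WT 2 (0.17) and without KO 1 (-2.06). For Mbnl1 it ranged from -1.24 to 4.22 for a 154-nt exon, from -0.89 to 0.70 for the 36-nt exon against the junction past both exons, and from -0.69 to 0.73 and from -0.57 to 0.22 for the 95-nt exon spliced from the exon before and from the 36-nt exon. Where 1 library of a group is left, its spread is taken from the other group. The cause of these changes was not tested.

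The replicate numbers are shared by title only (correlation of same-numbered deviations 0.282, over 2 pairs), so the block with the replicate number was an alternative. The block changed no call of a member and gave -1.62 for the excess reads of the longer Mbnl2 transcript. It turned the change of the 154-nt Mbnl1 exon from -0.19 to 0.036 and moved the calls among all genes from 1 to 121. The other settings also moved the calls among all genes, from 0 (upper quartile, limma-voom, no robust moderation) to 62 (no filter), 103 (DESeq2) and 427 (without KO 1), with 2, 43 and 13 without WT 1, WT 2 and KO 2. Among all junctions they numbered 1 to 12, beside 4, and among all exon comparisons 0 to 2. Leaving out WT 2 gave 4 member junctions and leaving out KO 1 gave 1 at an unadjusted p under 0.05, beside 0 with all libraries.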
